A study of Mus musculus with 4 samples.

Results

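The genes described here are 9 components of the bone morphogenetic protein (BMP) pathway: the ligand genes Bmp2, Bmp4 and Bmp7, the receptor gene Bmpr1a, the inhibitor gene Smad6 and the target genes Id1, Id2, Id3 and Id4. They were taken by symbol from the deposited expression lists, and all 9 were found among 28250 genes. They were measured by RNA-seq in TBV2 cells, a feeder-dependent mouse embryonic stem cell (ESC) line of 129/SvP background, in the presence of the cytokine LIF. Both solvent libraries (replicates 1 and 2) came from cells given the vehicle alone for 24 h, and both MS-275 libraries came from cells exposed over the same 24 h to MS-275 at 5 µM, an inhibitor of the class I histone deacetylases. The comparison asks how the inhibitor changes the transcriptome of ESCs while LIF is present. The sources do not say whether the libraries of a condition came from separate cultures, so the p-values speak for these libraries alone. The variance behind them was drawn largely from all genes tested, not from the spread of each gene. Which vehicle the controls received is not settled by the sources, and it is called solvent here.

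BMP ligands are secreted dimers that bring type I and type II receptors together at the cell surface. The activated type I receptor phosphorylates Smad1, Smad5 and Smad9, which enter the nucleus with Smad4 and switch on target genes, the Id genes first among them. Id proteins have a helix-loop-helix but no DNA-binding region, and they hold E proteins in dimers that cannot bind DNA. In mouse ESCs, BMP4 acts with LIF to sustain self-renewal, and the Id genes are known for blocking entry into neural fates.

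Smads recognise a BMP-responsive element in which GGCGCC stands 5 bases before GTCT. These letters, with any bases in the gap, were searched on both strands of the 5000 bases before each annotated gene start on mm9, the genome build of the files. Of 22367 protein-coding genes, 54 (0.241%) held a match, and among the 9 genes these were Id2 and Id3. Both sites are shown because Id promoters are known for such elements. They are printed on the strand of the gene, with the matched letters in capitals. The site of Id2 began 2776 bases before the gene start (chr12:25783712-25783741, minus strand), and that of Id3 began 2957 bases before it (chr4:135696447-135696476, plus strand).
Id2: acgcgcctGGCGCCAGAGAGTCTgctccgg
Id3: cccaccctGGCGCCAGGCTGTCTggggctg
No match to these letters was found in this window for the other 7 genes. The letters GTCTAGAC, a palindrome that Smads also bind, occurred once in the same window of Id1, 3282 bases before its start, and in 4.08% of all windows.

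The 250 bases before the gene start are shown for Id1 and Id2, which rose in the comparison within replicate pairs, and for Smad6, which did not pass it. Capitals mark 3 sets of letters, each searched on both strands. The GC box was searched as GGGCGG, a binding sequence of the factor Sp1. The TATA box was searched as TATAAA, where the general transcription machinery can assemble. The last was GGCGCC, the first part of the element above. The stretches are chr2:152561737-152561986 (plus strand) for Id1, chr12:25780958-25781207 (minus strand) for Id2 and chr9:63869867-63870116 (minus strand) for Smad6.
Id1: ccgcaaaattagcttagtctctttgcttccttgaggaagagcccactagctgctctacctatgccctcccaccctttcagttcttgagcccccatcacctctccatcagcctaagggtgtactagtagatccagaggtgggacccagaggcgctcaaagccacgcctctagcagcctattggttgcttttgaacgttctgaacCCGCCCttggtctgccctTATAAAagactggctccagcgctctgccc
Id2: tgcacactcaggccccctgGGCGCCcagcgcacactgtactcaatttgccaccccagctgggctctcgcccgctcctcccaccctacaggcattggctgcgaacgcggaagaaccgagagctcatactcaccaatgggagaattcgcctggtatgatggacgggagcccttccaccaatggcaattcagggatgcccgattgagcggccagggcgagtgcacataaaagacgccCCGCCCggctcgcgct
Smad6: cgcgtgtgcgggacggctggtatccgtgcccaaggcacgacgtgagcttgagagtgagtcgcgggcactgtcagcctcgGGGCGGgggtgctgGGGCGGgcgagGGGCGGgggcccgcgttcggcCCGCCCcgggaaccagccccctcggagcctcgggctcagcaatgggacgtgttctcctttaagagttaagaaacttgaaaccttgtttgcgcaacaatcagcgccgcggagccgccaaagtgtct
A GC box was present in 39.6% of all 250-base stretches, a TATA box in 12.3% and GGCGCC in 11.1%. Id1 held 1 GC box and a TATA box 29 bases before its start, Id2 held 1 GC box and 1 GGCGCC, and Smad6 held 4 GC boxes. Bmp2, Bmp4 and Bmp7 held GC boxes as well, and Bmpr1a held a TATA box on the opposite strand, 45 bases before its start. Id3 and Id4 held none of these letters.

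The unit of the values is a normalized expression signal that the authors obtained with Genomatix. The values followed the number of alignments per base of exon more closely than the number of alignments in 7 of 8 pairings of values with alignments, so levels are compared between genes as values per length. Library totals of the deposited alignments ranged from 9785619 to 23467935. In the alignments deposited with replicate 1, 53.2% (solvent) and 54.4% (MS-275) repeated a position already seen, and in those deposited with replicate 2 none did. The paper does not state how repeats were treated in either set, and a difference in processing before deposit was not tested. The file headers of the values call replicate 1 old, while the alignments called old were deposited with replicate 2. An exchange of alignments within each condition would leave the group means as they are. The marker list for ESCs, 10 genes with Pou5f1, Sox2 and Nanog among them, summed to 5.94 and 23.2 with solvent and to 5.17 and 14.6 with MS-275. With 2 libraries against 2, an exact permutation test cannot give a two-sided p below 0.333, so tests come from limma fitted to the 20336 genes that reached 0.001 in 2 or more libraries, on log2(value + 0.005).

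With MS-275 the 4 Id genes had means 4.3 to 8.0 times those with solvent. The means of the ligands Bmp4 and Bmp7, the receptor Bmpr1a and the inhibitor Smad6 were 0.649 to 1.02 times those with solvent. Bmpr1a and Smad6 were lower in both replicate pairs and passed as lower in some of the fits described below. Bmp2 was near the limit of detection in both conditions. The plot of values by library shows every value of these genes.

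**Figure D1:**
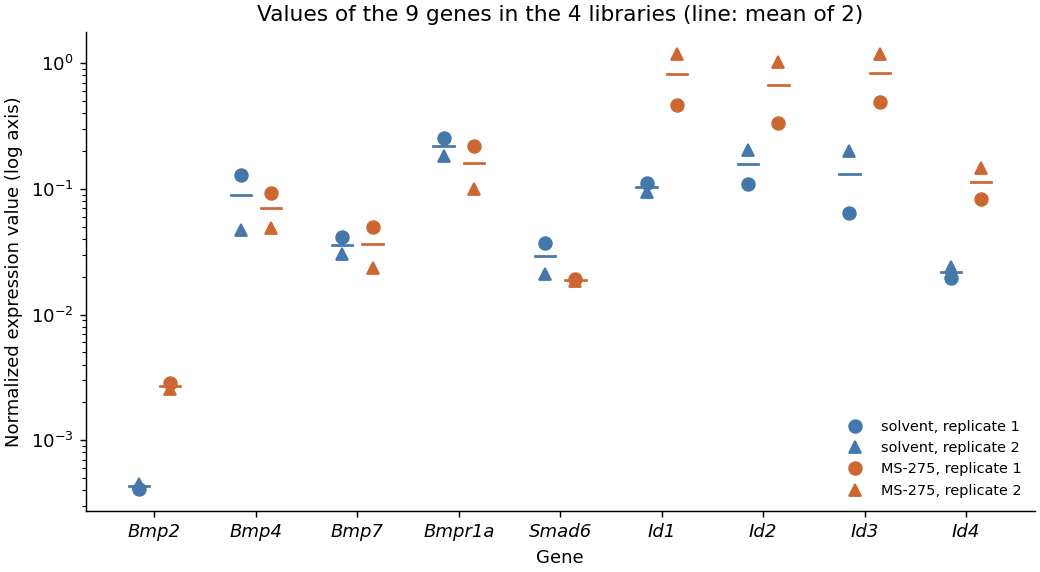
Normalized expression value (log axis) of the 9 genes in each library, with solvent in blue, MS-275 in orange, circles for replicate 1, triangles for replicate 2 and a line at the mean of both. Both MS-275 points lie above both solvent points for Bmp2 and the 4 Id genes, as for 32.3% of all genes tested. They lie below for Smad6, as for 12.0% of all genes tested, and the groups overlap for Bmp4, Bmp7 and Bmpr1a.

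Id1 (Entrez 15901, chromosome 2 of mm9 from 152561987 to 152563146), an Id gene widely used as a readout of BMP signalling, had a value of 0.111 and 0.0945 in solvent replicates 1 and 2 and of 0.466 and 1.18 in MS-275 replicates 1 and 2. The groups did not overlap, and the solvent mean of 0.103 ± 0.0117 stood against an MS-275 mean of 0.822 ± 0.504 (SD, n = 2 each). The log2 fold change of Id1 was 2.80, or 2.02 in replicate pair 1 and 3.57 in pair 2.

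Id2 (Entrez 15902, chromosome 12 from 25778666 to 25780957), which the study names among its neural precursor genes, was at 0.109 and 0.205 with solvent and at 0.332 and 1.02 with MS-275. Both MS-275 values lay above both solvent values, which held for 32.3% of all genes tested, and the log2 fold change was 1.56 in pair 1 and 2.28 in pair 2. The MS-275 libraries differed more from each other than the solvent libraries did.

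Id3 (Entrez 15903, chromosome 4 from 135699412 to 135701670), which often acts in place of Id1, was at 0.0646 and 0.200 with solvent and at 0.493 and 1.18 with MS-275. The groups did not overlap, the means were 0.132 ± 0.0959 and 0.838 ± 0.488 (SD, n = 2 each), and the log2 fold change was 2.69. It was 2.84 in pair 1 and 2.53 in pair 2, and Id3 was thus the Id gene whose larger change lay in pair 1.

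Id4 (Entrez 15904, chromosome 13 from 48356796 to 48359405), an Id gene known from neural progenitors and also named by the study, was at 0.0197 and 0.0238 with solvent and at 0.0828 and 0.146 with MS-275. The groups did not overlap, and the log2 fold change was 1.83 in pair 1 and 2.39 in pair 2. The study named Id2 and Id4, like Hey1, from these same libraries, so their direction here is not independent evidence. The value of Id4 was below that of each other Id gene in every library, with solvent and with MS-275. Its exons share 171 bases with A330033J07Rik, a long noncoding RNA gene on the opposite strand, and both strands are read in these libraries.

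Without a replicate block, 0 of the 9 genes passed an adjusted p of 0.05 in limma (Benjamini-Hochberg), against 1 of all genes (0.00492%) higher and 0 lower. That gene was Muc3 and lies outside the pathway. At an unadjusted p under 0.05, 5 of the 9 genes were higher (the 4 Id genes and Bmp2), against 14.6% of all genes. Bmp2 entered the test through the MS-275 libraries alone, so it could only have been called higher. The adjusted p was 0.0581 for Id1, 0.120 for Id2, 0.0708 for Id3 and 0.0868 for Id4. With the replicate number as a block, which compares the libraries within pairs, 4 of the 9 genes were higher, against 21.0% of all genes, and 0 were lower, against 6.46%. The 4 were the Id genes, with an adjusted p of 1.02e-05 for Id1, 4.13e-05 for Id2, 1.72e-06 for Id3 and 5.57e-05 for Id4 (limma with the block). The 95% interval of the log2 fold change in that fit was 2.17 to 3.42 for Id1, 1.41 to 2.44 for Id2, 2.20 to 3.17 for Id3 and 1.52 to 2.69 for Id4. That fit leaves each gene little spread of its own. The variance behind these p-values and intervals was therefore drawn largely from all genes tested. Both pair changes of Id1, 2.02 and 3.57, lay outside its interval, while those of Id2, Id3 and Id4 lay inside theirs. Among all genes tested the log2 fold changes of Id1, Id2, Id3 and Id4 ranked 117, 580, 144 and 442 from the top. Over all genes the median log2 fold change was 0.20, and median-ratio scaling brought it to 0.03 and quantile normalization to -0.03. Under both scalings with the block, the Id genes stayed between 1.70 and 2.69 and were again the 4 that rose, against 16.7% (median-ratio) and 14.4% (quantile) of all genes. With a mean value of at least 0.01 as the filter and no block, Id1, Id2 and Id3 were higher (3 of 8 genes, against 3.16% of all). Without solvent replicate 1 only Id1 of the 9 passed (0.787% of all genes were higher and 0.143% lower), and without solvent replicate 2 only Id3 did (0.374% and 0.123%). The log2 fold change of Id1 was 3.46 without MS-275 replicate 1 and 2.13 without MS-275 replicate 2, and that of Id2 was 2.72 and 1.13. That of Id3 was 1.91 and 3.47 without solvent replicates 1 and 2, and 3.31 and 2.06 without MS-275 replicates 1 and 2. Id4 stayed between 1.72 and 2.50 whichever library was left out.

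**Figure D2:**
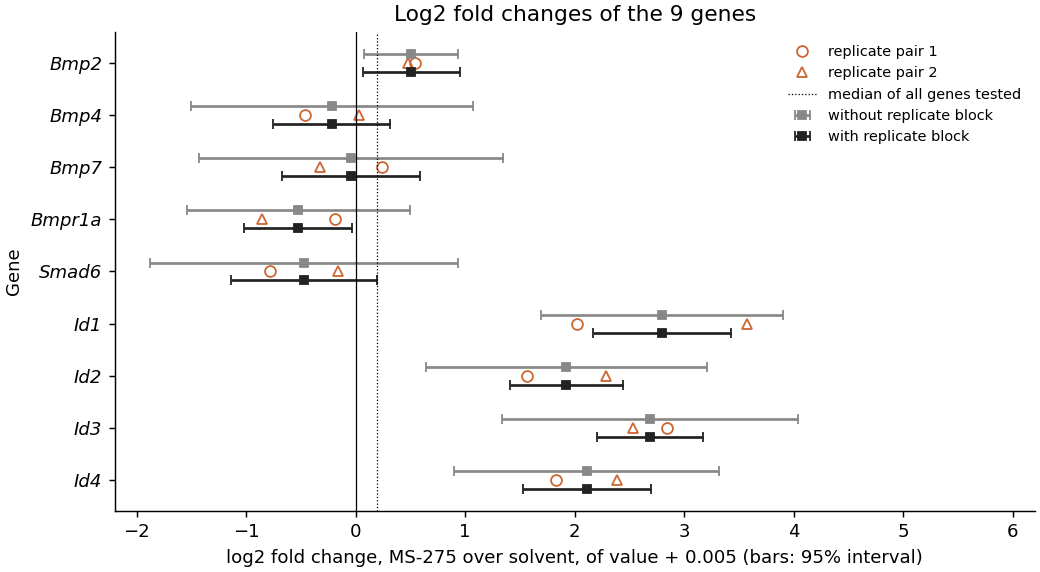
Log2 fold change (MS-275 over solvent, of value + 0.005) of the 9 genes on the horizontal axis, with squares and bars for the limma estimate and its 95% interval without (grey) and with (black) the replicate block, and open circles and triangles for replicate pairs 1 and 2. The intervals of the 4 Id genes lie above 0.64 in both fits, and those of Bmp4, Bmp7 and Smad6 include 0 in both. That of Bmp2 lies above 0 in both, and that of Bmpr1a lies below 0 with the block and includes 0 without it.

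The size of the rise in the Id genes depended on repeated alignment positions. With repeats kept, the share of exon alignments on Id1 was 12.9 times higher with MS-275 in the alignments deposited with replicate 1 and 4.31 times higher in those of replicate 2. With each position counted once, the first of these ratios was 4.90. For Id2 the same ratio moved from 5.26 to 2.77, beside 2.75 in the alignments of replicate 2. For Id3 it moved from 6.22 to 3.07, beside 7.48, and for Id4 from 5.01 to 3.90, beside 4.42. Counted once, the ratios of Id1, Id2 and Id4 lay closer together in both sets of alignments than those of Id3. In the alignments deposited with MS-275 replicate 1, the 2302 alignments on the 1160 exon bases of Id1 fell on 545 distinct positions. Counting each position once also drops alignments of separate fragments that start at the same base, and how much this lowered the ratios was not tested. The ratios of the values, 4.19 and 12.5 for Id1 in pairs 1 and 2, lay close to those of the alignments deposited with the other replicate number.

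**Figure D3:**
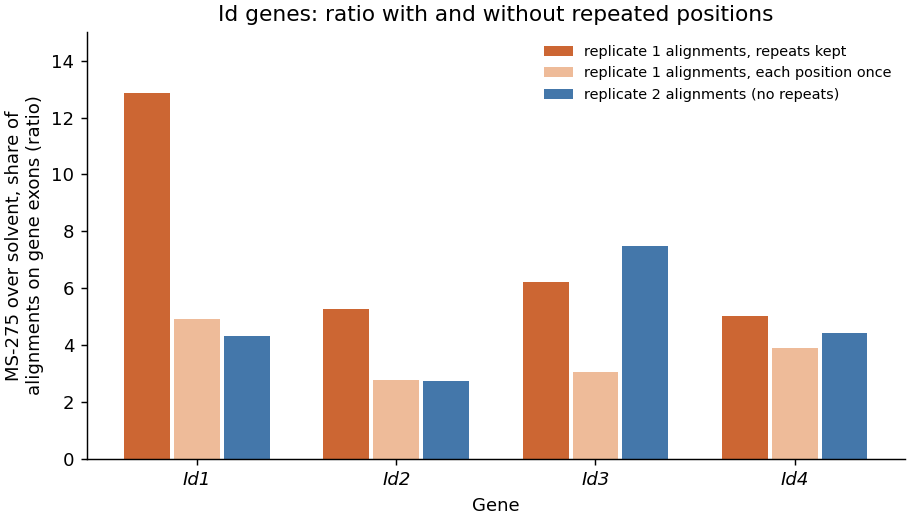
Ratio of MS-275 to solvent in the share of exon alignments on each Id gene, for the alignments deposited with replicate 1 with repeats kept (dark orange) and with each position counted once (light orange), and for those deposited with replicate 2 (blue), in which no position repeats. The dark bar of Id1 reaches 12.9 and its other bars 4.90 and 4.31.

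Over both libraries of a condition, distinct positions on exons numbered 237 with solvent and 1026 with MS-275 for Id1, 428 and 1073 for Id2, 332 and 1201 for Id3, and 90 and 338 for Id4. The limma-voom fit to distinct positions gave 3 of the 8 genes it could test as higher without a block, against 15.1% of all genes, and 4 of 8 with it, against 29.8%. Lower calls were 0 of 8 without the block, against 5.12% of all genes, and 1 of 8 (Bmpr1a) with it, against 14.0%. Without the block Id1, Id3 and Id4 passed (adjusted p = 0.00624, 0.0269 and 0.0189), and Id2 did not (log2 fold change 1.41, adjusted p = 0.0584). With the block the log2 fold change was 2.20 for Id1, 1.46 for Id2, 2.09 for Id3 and 2.02 for Id4, and the largest adjusted p of the 4 was 5.72e-07.

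Some markers of the feeder fibroblasts moved with the Id genes, and others did not. Of 11 markers tested (of 12), 6 rose with the block and 0 fell, against 21.0% and 6.46% of all genes. With median-ratio scaling added, 5 rose and 1 (Dcn) fell, and with quantile normalization 3 rose and 2 (Col3a1 and Dcn) fell. The summed value of the list was 0.394 and 0.533 with solvent and 0.693 and 0.922 with MS-275. The collagen gene Col1a1 rose most among them, from 0.0146 and 0.0101 to 0.0681 and 0.110. The matrix genes Col3a1 and Dcn had log2 fold changes of -0.52 and -0.72 and were lower in both pairs (limma adjusted p = 0.206 and 0.0728 with the block). Postn, S100a4 and Col5a2 lay between 0.11 and 0.25 with overlapping groups, and the fibroblast protease Fap was listed at 0 in 3 libraries. Fibroblasts also express Id genes, and their part in the rise was not tested. In bulk samples more cells of a type and more RNA per cell cannot be told apart.

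The ligand genes gave no call. Bmp4 (Entrez 12159, chromosome 14 from 47003195 to 47010344), the ligand most used with ESCs, was at 0.130 and 0.0474 with solvent and at 0.0926 and 0.0486 with MS-275, so the groups overlapped. Its log2 fold change was -0.22 (95% interval -0.75 to 0.32 with the block; limma adjusted p = 0.929 without it and 0.562 with it). Without solvent replicate 1 it turned to 0.46, and without MS-275 replicate 2 to 0.22. Its exons share 89 bases with overlapping genes, and those of Bmpr1a share 290, so some reads there cannot be assigned.

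Bmp7 (Entrez 12162, chromosome 2 from 172693513 to 172765822), a ligand known from kidney and eye development, was at 0.0415 and 0.0305 with solvent and at 0.0498 and 0.0234 with MS-275. The pairs moved apart, with 0.24 in pair 1 and -0.32 in pair 2 on the log2 scale, and the fitted change was -0.04 (95% interval -0.67 to 0.58 with the block). The sign turned without solvent replicate 1 (0.15) and without MS-275 replicate 2 (0.43).

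Bmp2 (Entrez 12156, chromosome 2 from 133377895 to 133388621), a close relative of Bmp4, was at 0.00041 and 0.00045 with solvent and at 0.00287 and 0.00258 with MS-275. It reached 0.001 with MS-275 alone and entered the test through that group. Behind these values stood 3 distinct positions over both solvent libraries and 19 over both MS-275 libraries. Their ratio per position on gene exons was 6.60, with an exact 95% interval of 1.94 to 34.8 that covers counting error only. Both groups lie below the pseudocount, and the log2 fold change of 0.51 (limma adjusted p = 0.207, or 0.0821 with the block) moved to 1.38 with a pseudocount of 0.001.

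Bmpr1a (Entrez 12166, chromosome 14 from 35223920 to 35316527), a type I receptor that BMP2 and BMP4 bind, was at 0.253 and 0.184 with solvent and at 0.221 and 0.0994 with MS-275. Each pair was lower with MS-275 while the groups overlapped, and the log2 fold change was -0.19 in pair 1 and -0.85 in pair 2. The fit gave -0.52 (limma adjusted p = 0.665, or 0.107 with the block). With the block it passed as lower under median-ratio scaling (-0.75, adjusted p = 0.0238; 11.7% of all genes were lower there), under quantile normalization (-0.55, adjusted p = 0.0405; 14.6%) and over distinct positions (-0.46, adjusted p = 0.00430). Without MS-275 replicate 2 it was at 0.03.

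Smad6 (Entrez 17130, chromosome 9 from 63800953 to 63869866) encodes an inhibitory Smad that BMP signalling itself induces. Its value was 0.0371 and 0.0212 with solvent and 0.0194 and 0.0184 with MS-275, and both MS-275 values lay below both solvent values, as was the case for 12.0% of all genes tested. The log2 fold change was -0.79 in pair 1 and -0.16 in pair 2, with a fitted -0.47 (95% interval -1.14 to 0.19 with the block; limma adjusted p = 0.819 without it and 0.285 with it). After quantile normalization with the block it passed as lower (-0.93, adjusted p = 0.0377). The interval of Smad6 in the fit with the block ended below the lower bound of each Id gene.

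In the order of levels, Bmpr1a had the highest value of the 9 genes in solvent replicate 1, while Id2 and Id3 stood above it in solvent replicate 2. Id1, Id2 and Id3 lay within their spread of each other with solvent and with MS-275. With MS-275 all 3 stood above Bmpr1a in both libraries. Bmp2 was the lowest gene in every library. A rule without a test, a rise of 2-fold or more in each replicate pair with lower values set to 0.001, held for the 4 Id genes and Bmp2, against 11.5% of all genes, and 0 of the 9 genes were 2-fold lower in both pairs, against 2.04%. Both solvent values of Bmp2 were themselves set to 0.001, and with 0.01 in place of 0.001, or with a 3-fold rule, the 4 Id genes were left.

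The E proteins, which Id proteins bind, stayed near their solvent level. Tcf3 (E2A) had a log2 fold change of -0.05 (95% interval -0.54 to 0.45 with the block), Tcf4 of 0.02 (-0.46 to 0.50) and Tcf12 of -0.26 (-0.74 to 0.22), and 0 of the 3 passed. The summed value of the 4 Id genes was 0.305 and 0.523 with solvent and 1.37 and 3.52 with MS-275, while that of the 3 E-protein genes was 0.805 and 0.840 and then 0.759 and 0.842. The ratio of Id to E-protein values was thus 0.378 and 0.623 with solvent and 1.81 and 4.19 with MS-275. It lay below 1 in both solvent libraries and above 1 in both MS-275 libraries. These are RNA signals and not protein amounts, so a value of 1 marks no balance of the proteins. As the E-protein sum changed little, the ratio mainly repeats the rise of the Id sum. This ratio was computed after the values had been seen.

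The other genes of the pathway were counted by role, in lists that were chosen with earlier results of these libraries known. Of 75 genes in 8 lists, 74 were among the deposited values (Eng was not matched) and 67 were tested. With the block 19 rose and 5 fell, against 21.0% and 6.46% of all genes, and without it 0 passed in limma. At an unadjusted p under 0.05 and without the block, 19 were higher and 2 were lower, against 14.6% and 2.77% of all genes. Their median log2 fold change was 0.29, against 0.20 for all genes tested, and it turned to -0.06 after quantile normalization.

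**Figure D4:**
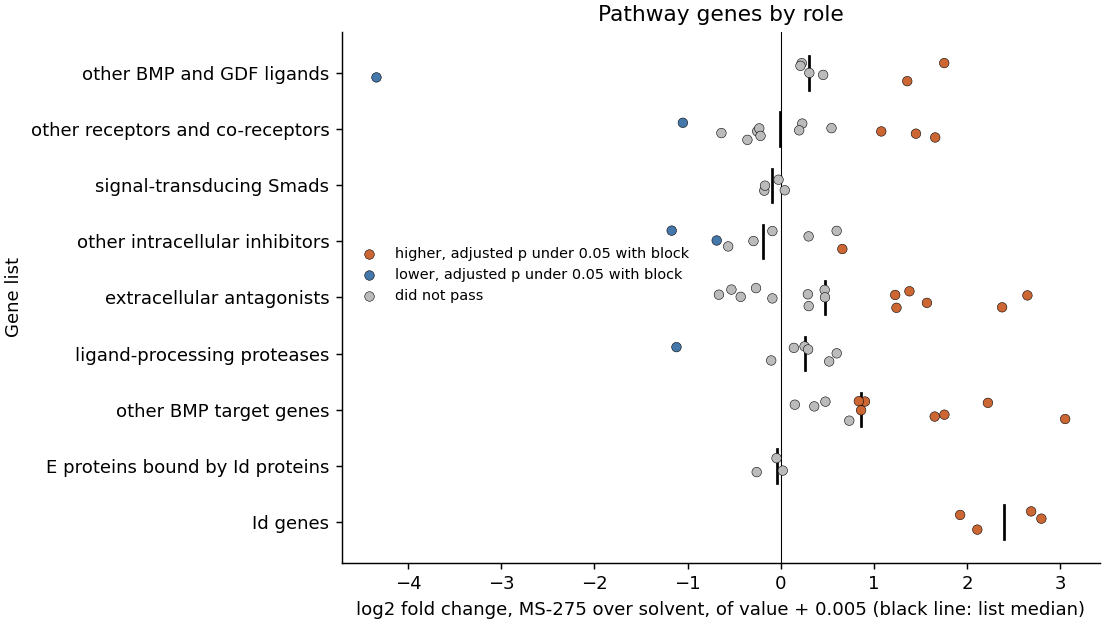
Log2 fold change (MS-275 over solvent, of value + 0.005) of each tested pathway gene by role, with a black line at the median of each list. Genes that passed an adjusted p of 0.05 in limma with the replicate block are orange where higher and blue where lower. The others are grey. The Id genes lie between 1.92 and 2.80, the signal-transducing Smads and the E proteins lie near 0, and Gdf3 lies lowest at -4.34.

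Among the other ligands, 7 of 13 were tested, of which 2 rose and 1 fell with the block (21.0% and 6.46% of all genes). Bmp6, a ligand known from iron metabolism, was at 0.0148 and 0.00252 with solvent and at 0.0386 and 0.0338 with MS-275 (log2 fold change 1.75, limma adjusted p = 0.00142 with the block). Bmp8a, known from germ cells, rose by 1.36 on the log2 scale (adjusted p = 0.00116 with the block). Gdf3, a ligand of pluripotent cells that can also inhibit BMPs, was at 0.387 and 0.565 with solvent and at 0.0375 and 0.00782 with MS-275. Both its MS-275 values lay below both its solvent values, as for 12.0% of all genes tested. Its log2 fold change of -4.34 had a 95% interval of -5.11 to -3.56 with the block.

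Of 12 receptors and co-receptors tested, 3 rose and 1 fell with the block, shares near the 21.0% and 6.46% of all genes. The BMP co-receptor genes Rgma and Hfe2 changed by 1.45 and 1.66 on the log2 scale (limma adjusted p = 0.00217 and 0.00184 with the block), and Tgfbr3, a co-receptor for several ligands, rose as well. Amhr2, the type II receptor of anti-Müllerian hormone, had a log2 fold change of -1.05 (adjusted p = 0.0198 with the block). The type II receptor gene Bmpr2 was at 0.139 and 0.0841 with solvent and at 0.105 and 0.243 with MS-275, so its groups overlapped.

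None of the 4 signal-transducing Smads passed in either fit. Smad1 had a log2 fold change of -0.18 (95% interval -0.70 to 0.35 with the block), Smad5 of -0.02 (-0.49 to 0.44), Smad9 of 0.04 (-0.49 to 0.57) and the shared partner Smad4 of -0.17 (-0.66 to 0.33). These intervals leave room for changes of these sizes.

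Of 8 intracellular inhibitors, 1 rose and 2 fell with the block, against 21.0% and 6.46% of all genes. Smad7, the inhibitory Smad of the TGF-β and BMP branches, was at 0.233 and 0.264 with solvent and at 0.111 and 0.104 with MS-275. Both MS-275 values lay below both solvent values, as for 12.0% of all genes tested. The log2 fold change was -1.17 (limma adjusted p = 0.00104 with the block and 0.136 without it). The corepressor gene Ski changed by -0.69 (adjusted p = 0.0320 with the block). Bambi, a pseudoreceptor, changed by 0.66 (adjusted p = 0.0398 with the block), a call that was lost under either scaling.

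Of 15 secreted antagonists tested, 6 rose and 0 fell with the block, against 21.0% and 6.46% of all genes. With median-ratio scaling added 1 fell, against 11.7%, and with quantile normalization 3 did, against 14.6%. Sost was at 0 and 0.00064 with solvent and at 0.0111 and 0.0636 with MS-275, and Fstl3 was at 0.00952 and 0.00605 and then at 0.0580 and 0.0636. Both are low genes whose groups did not overlap. Chrd, a classical BMP antagonist, had a log2 fold change of -0.66 (limma adjusted p = 0.105 with the block). Of 7 genes for proteases that act on ligands or antagonists, 0 rose and 1 fell with the block: Pcsk6, a ligand convertase, at -1.12 (adjusted p = 0.00314).

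Of 11 other BMP targets, 7 rose and 0 fell with the block, against 21.0% and 6.46% of all genes. With median-ratio scaling added 6 rose, against 16.7%, and with quantile normalization 4 did, against 14.4%. The homeobox gene Dlx3 was at 0.00392 and 0.00458 with solvent and at 0.0436 and 0.116 with MS-275 (log2 fold change 3.05, limma adjusted p = 1.6e-05 with the block). The homeobox gene Msx1 was at 0 and 0.00195 and then at 0.0195 and 0.0259 (2.22, adjusted p = 4.1e-05 with the block). Both had solvent values near or under the pseudocount, while the Id genes had solvent values well above it. Hey1, which is also a Notch target, rose by 1.76 on the log2 scale.

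Likeness was measured as the Euclidean distance between centred log2 values over the 4 libraries, among 14740 genes with a mean of at least 0.01. The nearest genes were Hspa2 (0.197) and Nnat (0.204) for Id1, Gm5662 (0.229) and Ier3 (0.253) for Id2, Mt3 (0.405) and Cdkn2a (0.443) for Id3, and Duoxa2 (0.157) and Tnni2 (0.197) for Id4. They were Grin1 (0.0475) and Gcnt4 (0.0531) for Bmp4, Rnf157 (0.0103) and Camsap1 (0.0205) for Bmp7, Usp6nl (0.0106) and Adap1 (0.0329) for Bmpr1a, and Defb42 (0.0964) and Mtrf1 (0.0983) for Smad6. Among the 9 genes themselves the closest were Bmp7 and Bmpr1a (0.496), and the closest Id genes were Id2 and Id4 (0.765). Duoxa2 (0 and 0.00033) and Tnni2 (0.00129 and 0.00111) lay under the pseudocount in both solvent libraries, so their closeness to Id4 depends on it. All distances rest on 4 libraries only, and how many other genes lie as close was not counted.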

How the data were processed

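Polyadenylated RNA of the 4 libraries was sequenced and aligned to mm9 by the authors, who deposited a normalized expression signal per gene from Genomatix (formula and version not given in the sources used here) and the alignments. Deposited ratios per replicate pair were not used. The 9 genes and all lists were chosen with earlier results of these data known. Genes that reached 0.001 in 2 or more libraries were fitted with limma 3.58.1 (R 4.3.3; eBayes with trend) on log2(value + 0.005), with Benjamini-Hochberg adjustment over all genes tested. This pseudocount understates changes of low genes. The script was tested on simulated data. Replicate numbers were used as a block in a further fit: the headers of the values mark replicate 1 as old in each condition, and deviations from the group means correlated with r = 0.764 between libraries of the same number. Alignments of 35 bases on GENCODE M1 exons were also counted once per position, without strand, and fitted with limma-voom. Positions depend on depth and are not independent molecules. Alternatives were other pseudocounts, filters and scalings, and each library left out. Pathway genes were named by size of change, up to 2 in each direction per list, and likeness by the 2 nearest genes. Bmpr2, Tgfbr3, Smad5, Col1a1, Fap, Muc3 and Hey1 were added after their values were seen, where the rule did not name them.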

Additional observations from a re-analysis of the deposited data

How the results depend on the processing

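The direction of Bmp2, Smad6 and the 4 Id genes held under every alternative run. Without the replicate block, 1 gene was called higher and 0 lower in limma, and 0 were higher with a pseudocount of 0.001 or 0.02, without a filter, after quantile normalization, after median-ratio scaling or without a trend. With a mean value of at least 0.01, 466 genes were higher and 65 lower, of which 3 higher were Id1, Id2 and Id3; 4 other pathway genes were higher and 1 lower. The replicate block gave 4277 genes higher and 1314 lower, 4 of the 9 genes higher, and 19 other pathway genes higher and 5 lower. With median-ratio scaling added to the block these were 3402 and 2370, 4 and 1, and 17 and 8. With quantile normalization added they were 2936 and 2961, 4 and 2, and 15 and 10. Over distinct alignment positions 2558 genes were higher and 868 lower, 3 of the 9 genes higher, and 16 pathway genes higher and 4 lower. With the block these were 5053 and 2367, 4 and 1, and 24 and 8. The pathway median of 0.29 was 0.34 and 0.13 with pseudocounts of 0.001 and 0.02, 0.25 without a filter, 0.021 with a mean of at least 0.01, 0.10 under median-ratio scaling and -0.059 under quantile normalization, with or without the block. Leaving out 1 library gave 0 to 160 genes higher and 0 to 29 lower, 0 to 1 of the 9 genes higher (Id1 without solvent replicate 1, adjusted p = 0.0176; Id3 without solvent replicate 2, adjusted p = 0.00277), 0 to 1 pathway genes lower and a pathway median of 0.10 to 0.38. The lone library left in a group was assumed to vary like the others. The sign turned for Bmp4 (range -0.90 to 0.46; 0.46 without solvent replicate 1, 0.22 without MS-275 replicate 2), Bmp7 (-0.52 to 0.43; 0.15 and 0.43) and Bmpr1a (-1.08 to 0.033, the latter without MS-275 replicate 2). The cause was not tested. Bmp2 had too low a value or too few positions for the fits with a mean of at least 0.01 and over positions. With 2 libraries a group and repeated positions in 1 set of alignments, the size of the Id changes is known less well than their direction.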
